A study of Mus musculus with 10 samples.

Results

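The genes described are 10 genes of major histocompatibility complex (MHC) class I antigen presentation, taken by name from the 18398 genes with a deposited value. They are the class I heavy chains H2-K1, H2-D1, H2-Q4 and H2-T23, the light chain B2m, the peptide handling genes Tap1, Tap2, Tapbp and Erap1, and the transcriptional coactivator Nlrc5. All 10 had a value in every library, and all 10 passed the filter on low values. Levels come from RNA sequencing of colon from wild-type (WT) mice, with 5 libraries from a normal diet and 5 from a diet labelled pro-inflammatory. The series' title speaks of colitis and gut microbiota, while the labels give no age, sex, strain, diet content or duration, and do not say whether colitis was induced. They also do not say that the libraries came from separate animals, so each p-value reflects the spread among these libraries alone, part of which may be technical. Libraries are named by diet and by the number in their label.

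Class I molecules are carried by nearly all nucleated cells and show peptides from the cell's own proteins to CD8 T cells. The proteasome cuts proteins into peptides, the TAP1 and TAP2 transporter moves these into the endoplasmic reticulum, ERAP1 trims them, and tapasin, the product of Tapbp, holds empty class I molecules at the transporter until a peptide fits. Heavy chains reach the surface together with beta-2 microglobulin, the product of B2m. Interferons raise the transcription of many of these genes through IRF1 and NLRC5, and in the gut the epithelium and leukocytes both carry class I.

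Short elements near the start are known to control class I transcription, and 4 start regions are printed to show which of their letters each one holds. H2-K1, H2-Q4 and B2m hold several, and Tap1 holds 1 in the part printed. Windows from RefSeq (GRCm38.p6) were matched by symbol for 8 of the 10 genes, with none for Tap2 and Nlrc5. Each sequence runs from 180 bases before to 20 bases after the RefSeq start, in the gene's own direction. Capitals mark matches on either strand to GGGANNNCCC (a kappa B element), GAAANNGAAA or GAANNGAAA (a strict and a relaxed interferon element), TGACG (part of the X2 box bound by CREB and ATF factors) and CCAAT (the Y box bound by NF-Y, read as ATTGG on the other strand). The regions are chr17:34000328-34000527 on the minus strand for H2-K1, and on the plus strand chr17:35379437-35379636 for H2-Q4, chr2:122147507-122147706 for B2m and chr17:34187376-34187575 for Tap1.
H2-K1: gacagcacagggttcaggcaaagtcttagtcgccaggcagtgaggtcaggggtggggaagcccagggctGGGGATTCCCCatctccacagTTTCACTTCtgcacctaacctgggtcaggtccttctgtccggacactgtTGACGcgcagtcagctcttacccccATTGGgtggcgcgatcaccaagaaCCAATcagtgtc
H2-Q4: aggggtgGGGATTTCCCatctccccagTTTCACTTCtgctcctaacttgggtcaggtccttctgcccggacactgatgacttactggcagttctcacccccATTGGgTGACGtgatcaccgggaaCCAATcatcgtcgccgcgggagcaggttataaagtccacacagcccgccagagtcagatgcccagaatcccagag
B2m: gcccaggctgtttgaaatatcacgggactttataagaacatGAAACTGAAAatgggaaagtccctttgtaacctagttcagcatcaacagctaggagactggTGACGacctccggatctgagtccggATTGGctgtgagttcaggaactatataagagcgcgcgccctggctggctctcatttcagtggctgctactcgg
Tap1: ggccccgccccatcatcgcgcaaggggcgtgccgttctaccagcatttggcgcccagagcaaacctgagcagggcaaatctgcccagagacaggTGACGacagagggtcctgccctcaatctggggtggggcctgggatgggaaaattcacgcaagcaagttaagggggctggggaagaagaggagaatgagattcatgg
The windows of H2-D1, H2-T23 and Erap1 lie wholly or mostly in 5′ untranslated sequence of a GENCODE transcript, and that of Tapbp lies inside its GENCODE gene, so these 4 are not printed. The printed ones reach into the transcript only at their last bases.

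Over the full 300-base windows, the kappa B letters were found in H2-K1, H2-D1 and H2-Q4, against 6.32% of the 27025 genes with a window and 8.65% of the 9889 among them that were tested here. The relaxed interferon element stood as TTTCACTTC in those same 3 heavy chains (8.68% of all genes, 7.37% of those tested), and the strict one in H2-T23 as TTTCTCTTTC, in B2m as GAAACTGAAA and in Erap1 as TTTCACTTTC (3.99% and 3.73%). The 10-base kappa B matches on opposite strands overlap each other in all 3 genes. TGACG was present in 5 of the 8 windows (23% of all genes, 34.9% of those tested) and CCAAT in 7 (41.1% and 42.6%). TTCNNNGAA, the letters of an interferon gamma activated site, were in 0 of the 8 (9.55% and 8.22%). In H2-K1, H2-D1 and B2m the TGACG began 25 bases before an ATTGG. This pair of letters at 20 to 30 bases was in 0.285% of all genes and 0.536% of those tested. In the printed H2-Q4 sequence the TGACG (from base -73) instead follows the ATTGG (from -79), so H2-Q4 lacks this pair. The Tap1 window overlaps that of Psmb9, an immunoproteasome gene read in the opposite direction, and the TGACG of Tap1 is the CGTCA of Psmb9. Such matches describe letters only, and the motifs were chosen with the sequences in view.

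Libraries held between 15652783 and 18341956 reads on genes, which put 91 to 26836 reads on each of the 10 genes per library. Epithelial markers summed to 7122 to 9783 FPKM (mapped fragments per gene length and library total) in the 10 libraries, with Epcam at 663 to 856. For 7 of the 15 epithelial markers both pro-inflammatory diet libraries 2 and 5 lay above the other 8, and the mean log2 level of the list was highest there, at 8.61 and 8.64 against 8.16 to 8.44. These 2 libraries stood apart. The 7 HOX genes that mark the distal colon summed to 9.28 and 34.4 FPKM in them and to 262 to 424 in the other 8 libraries, and Hoxb13 was at 0.417 and 20.9 FPKM against 211 to 341. In the normal diet libraries 1, 2 and 3 Dbp, an output gene of the clock, had 1.79 to 6.69 FPKM, and the remaining 7 libraries had 12.4 to 54.3. Results are therefore given with and without these libraries where they matter.

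All 10 genes had a higher mean on the pro-inflammatory diet, but none passed the test across all genes, and the higher values were those of libraries 2 and 5. Library 5 was the highest and library 2 the second highest of the 10 libraries for 10 of 10 genes, while libraries 1, 3 and 4 of that diet lay near the normal diet. The test was limma on log2(FPKM + 1) over 12345 genes with Benjamini-Hochberg adjustment, and it called 0 of the 10 genes, where 0% of all genes tested were called. Voom on the recovered reads also called 0. At an unadjusted p under 0.05, 1 of the 10 was higher (Erap1), against 8.16% of all genes tested (9.25% were lower at that level). The diets did not separate fully for any of the 10, against 1.77% of all genes that were higher, and 2.07% that were lower, without overlap. Their median log2 fold change was 0.42, ranging from 0.16 to 0.79, against -0.01 over all genes tested, of which 47.1% were above 0. Across the whole table, 13.9% of tested genes also had both libraries 2 and 5 above the other 8. Without these 2 libraries, 5 of the 10 genes had a positive difference and the median was -1.56e-05.

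**Figure D1:**
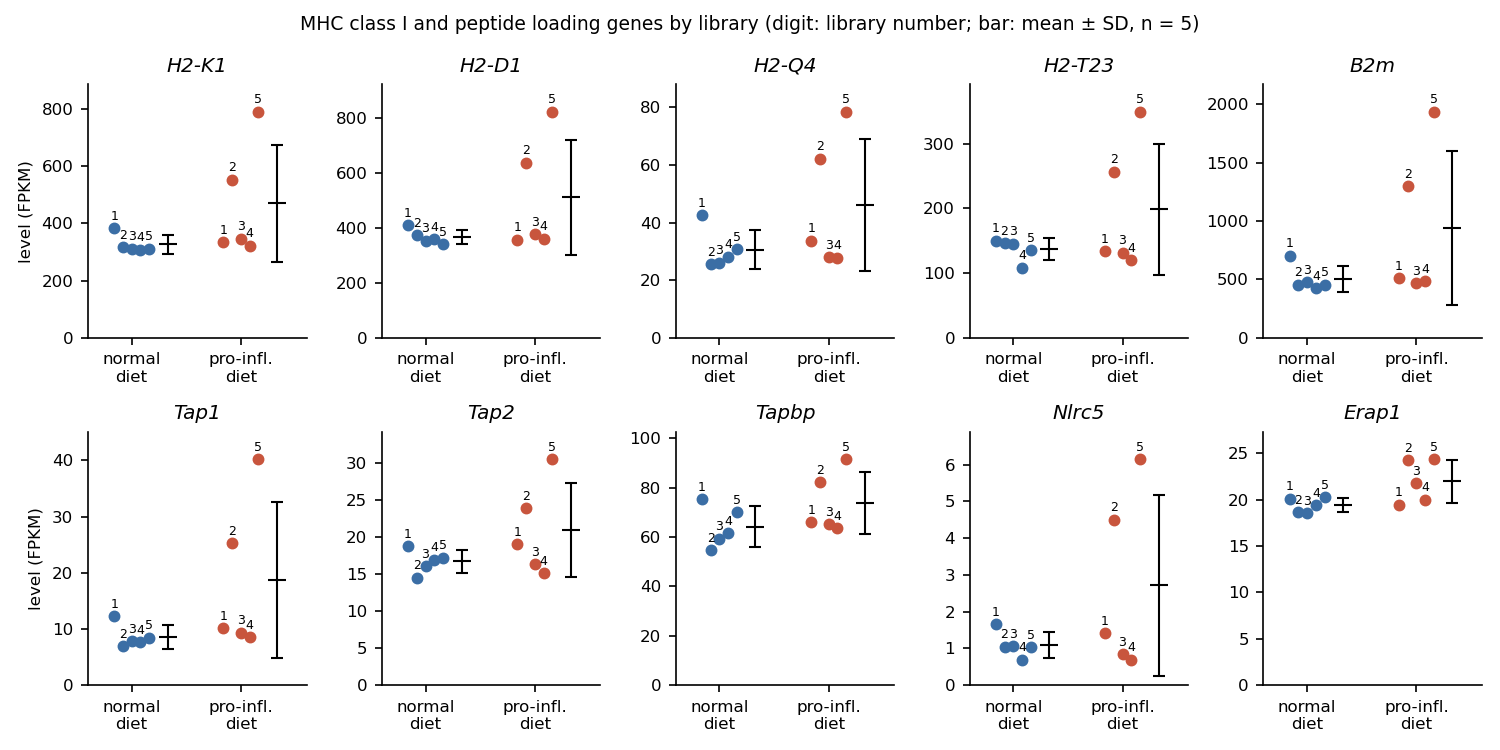
Level in FPKM (vertical axes, from 0) of the 10 genes in each of the 5 normal diet (blue) and 5 pro-inflammatory diet libraries (red), with library numbers as digits and mean ± SD as bars. Pro-inflammatory diet libraries 5 and 2 are the highest points in each panel, and the other 3 of that diet lie among or close to the normal diet libraries.

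The heavy chains bind the peptide and carry it to the surface. H2-K1 (chromosome 17, 33996017 to 34000347, minus strand, GRCm38), a classical heavy chain read by CD8 T cells, was at 383, 318, 311, 308 and 312 FPKM in normal diet libraries 1 to 5. In pro-inflammatory diet libraries 1 to 5 it was at 335, 553, 346, 322 and 790.3 FPKM. Only libraries 2 and 5 left the normal diet range, at 1.69 and 2.42 times the normal diet mean. The means were 326 ± 31.8 and 469 ± 203 FPKM (SD, n = 5 each), with a log2 fold change of 0.43 (SE 0.23, 95% interval -0.08 to 0.95, limma adjusted p = 0.347).

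H2-D1, the other classical heavy chain (chromosome 17, 35262730 to 35267499, plus strand), had normal diet values of 409.8, 373, 353, 358 and 340.3 FPKM. Its values on the pro-inflammatory diet were 357, 636, 375, 359.9 and 822 FPKM. Again libraries 2 and 5 were high, at 1.73 and 2.24 times the normal diet mean, and the other 3 lay inside the normal range. The log2 fold change was 0.39 (SE 0.23, 95% interval -0.11 to 0.89, limma adjusted p = 0.380). Of the 125-base stretches of its longest transcript, 68 of 1978 also occur in transcripts of other genes, H2-Q1 among them. For H2-T23 this held for 39 of 2518. H2-Q4 shared 1 of 2472, and the other 7 genes shared none. Only exact matches within the reference were counted, and the labels give no strain. The counts therefore set no upper limit on the uncertainty of the heavy chain levels.

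H2-Q4, a nonclassical heavy chain of the Q region (chromosome 17, 35379617 to 35385290, plus strand), was at 42.5, 25.6, 26.1, 28.2 and 30.7 FPKM on the normal diet. On the other diet it was at 33.8, 62.1, 28.0, 27.8 and 78.5 FPKM. Normal diet library 1 was above every library except pro-inflammatory diet libraries 2 and 5. Its log2 fold change was 0.47 (SE 0.29, 95% interval -0.18 to 1.11, limma adjusted p = 0.405).

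H2-T23 encodes Qa-1, a nonclassical molecule that shows leader peptides of other class I chains to the CD94 and NKG2 receptors of natural killer cells (chromosome 17, 36029773 to 36032855, minus strand). Normal diet libraries had 149.7, 146, 146, 108 and 135 FPKM. The pro-inflammatory diet gave 134, 256, 131, 119.6 and 349 FPKM. Libraries 1, 3 and 4 of that diet lay inside the normal range, and libraries 2 and 5 were at 1.87 and 2.55 times the normal mean. The log2 fold change was 0.40 (SE 0.28, 95% interval -0.22 to 1.03, limma adjusted p = 0.453).

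B2m, the light chain that all these heavy chains need for folding, was the most abundant of the 10 genes (chromosome 2, 122147686 to 122153083, plus strand). It was at 702, 456, 477, 424 and 456 FPKM on the normal diet. Pro-inflammatory diet libraries 1 to 5 had 509, 1297, 469.9, 484 and 1936 FPKM. Library 5 was at 3.85 times and library 2 at 2.58 times the normal diet mean, and libraries 1, 3 and 4 were inside the normal range. The means were 503 ± 113 and 939 ± 658 FPKM (SD, n = 5 each), with a log2 fold change of 0.66 (SE 0.39, 95% interval -0.21 to 1.53, limma adjusted p = 0.386).

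The heavy chains and the light chain did not differ by equal factors. The 4 heavy chains together, in FPKM, were 1.40 to 1.89 times B2m on the normal diet and 1.69, 1.87 and 1.71 times B2m in pro-inflammatory diet libraries 1, 3 and 4. This ratio was 1.16 in library 2 and 1.05 in library 5, the lowest of the 10 libraries. Light chain transcript was thus high by a larger factor than heavy chain transcript in these 2 libraries. Its mean log2 value was 0.80 ± 0.18 for the normal diet and 0.55 ± 0.37 for the other (SD, n = 5 each), a difference within the spread of the second group.

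Tap1, 1 chain of the peptide transporter (chromosome 17, 34187553 to 34197225, plus strand), had the largest log2 fold change of the 10 genes. It was at 12.3, 6.94, 7.80, 7.66 and 8.43 FPKM on the normal diet. Its pro-inflammatory diet values were 10.11, 25.3, 9.31, 8.53 and 40.3 FPKM. Library 5 reached 4.67 times and library 2 reached 2.93 times the normal mean, and the next highest library was normal diet library 1. The means were 8.63 ± 2.13 and 18.7 ± 13.9 FPKM (SD, n = 5 each), with a log2 fold change of 0.79 (SE 0.39, 95% interval -0.07 to 1.66, limma adjusted p = 0.317).

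Tap2, the partner chain of the transporter (chromosome 17, 34203527 to 34216321, plus strand), differed less. It was at 18.8, 14.5, 16.1, 16.99 and 17.2 FPKM on the normal diet. In the pro-inflammatory diet libraries it was at 19.1, 23.97, 16.4, 15.1 and 30.6 FPKM. Library 1 of that diet was just above the normal range, the one gene of the 10 for which this held. The log2 fold change was 0.27 (SE 0.17, 95% interval -0.10 to 0.65, limma adjusted p = 0.401).

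As both chains form 1 transporter, their ratio was read within each library. Tap1 was at 0.451 to 0.655 times Tap2 in the normal diet libraries and at 0.530, 0.569 and 0.565 times in pro-inflammatory diet libraries 1, 3 and 4. The order turned in libraries 2 and 5, with Tap1 at 1.06 and 1.32 times Tap2 per length. Tap1 over B2m ranged from 0.0152 to 0.0208 over all 10 libraries, so these 2 genes were high by similar factors. Tap1 over Psmb9, its neighbour across the shared start region, was 0.838 in library 2 and 1.001 in library 5, against 0.630 to 0.872 in the other 8. The sources used here do not give strand use in counting. Tap1 and Psmb9 overlap on opposite strands, as do B2m and Patl2, and Erap1 and Cast. Tapbp and Zbtb22, which also has deposited values, overlap on the same strand.

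Tapbp encodes tapasin, which keeps empty class I molecules at the transporter (chromosome 17, 33915899 to 33929292, plus strand). Its normal diet values were 75.3, 54.7, 59.3, 61.6 and 69.96 FPKM. Its pro-inflammatory diet values were 65.9, 82.3, 65.3, 63.6 and 91.6 FPKM. Libraries 2 and 5 exceeded the highest normal diet library by factors of 1.09 and 1.22 only. The log2 fold change was 0.19 (SE 0.12, 95% interval -0.08 to 0.46, limma adjusted p = 0.415). Relative to B2m, Tapbp was at 0.0635 and 0.0473 in libraries 2 and 5, against 0.107 to 0.154 in the other 8.

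Erap1 encodes the aminopeptidase that trims peptides inside the endoplasmic reticulum (chromosome 13, 74639568 to 74693201, plus strand). It was at 20.1, 18.7, 18.6, 19.4 and 20.3 FPKM on the normal diet. On the pro-inflammatory diet it was at 19.5, 24.2, 21.8, 20.01 and 24.4 FPKM. This was the smallest difference of the 10 genes and the one with the least spread, and library 3 also lay above the normal range. The log2 fold change was 0.16 (SE 0.07, 95% interval 0.0046 to 0.32, limma unadjusted p = 0.0448, adjusted p = 0.278).

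Nlrc5, a coactivator that binds class I promoters through the factors on their X and Y boxes, was the least abundant of the 10 (chromosome 8, 94434356 to 94527272, plus strand). Normal diet libraries had 1.66, 1.04, 1.06, 0.688 and 1.03 FPKM, from 96 to 216 reads. Pro-inflammatory diet libraries had 1.41, 4.50, 0.846, 0.694 and 6.16 FPKM, from 91 to 775 reads. Libraries 2 and 5 were at 4.10 and 5.62 times the normal mean, the largest ratios among the 10 genes, and libraries 3 and 4 lay in the lower part of the normal range. The log2 fold change, which the added 1 FPKM shrinks most for this gene, was 0.59 (SE 0.39, 95% interval -0.27 to 1.45, limma adjusted p = 0.426).

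**Figure D2:**
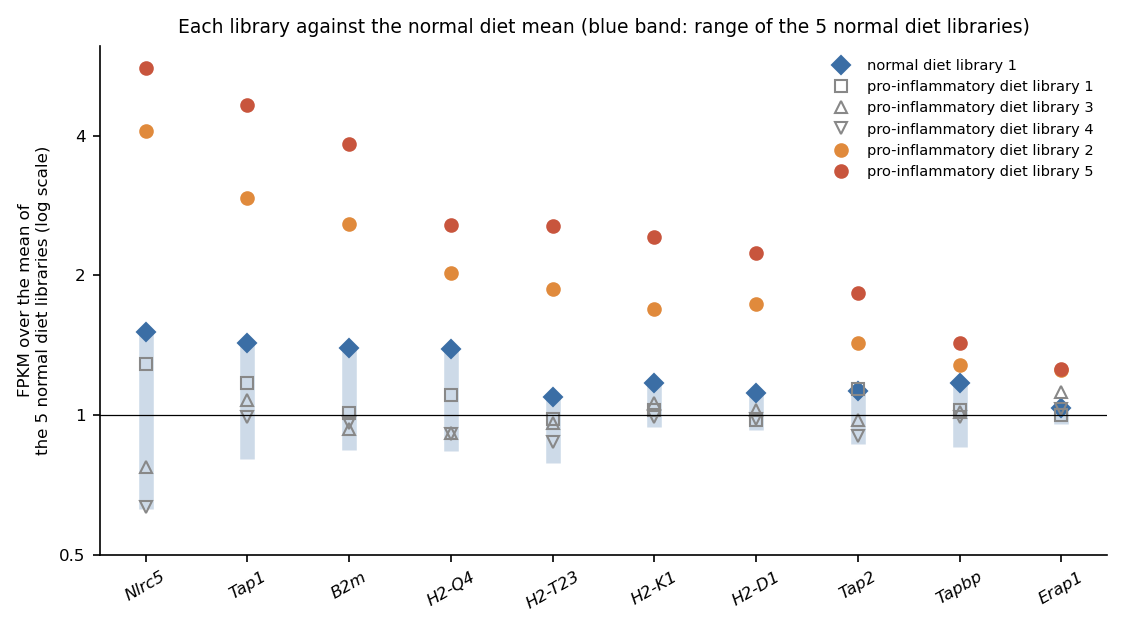
FPKM of each gene divided by its normal diet mean (vertical axis, log scale), for normal diet library 1 and the 5 pro-inflammatory diet libraries, with blue bands for the range of the 5 normal diet libraries. Libraries 5 and 2 run from 5.62 and 4.10 for Nlrc5 down to 1.26 and 1.25 for Erap1. The other 3 libraries of that diet lie nearer 1, and farthest from it for Nlrc5, at 1.29, 0.772 and 0.633.

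The order of levels per length was B2m, H2-D1, H2-K1, H2-T23, Tapbp, H2-Q4, Erap1, Tap2, Tap1 and Nlrc5, with means over 10 libraries of 721, 438, 398, 168, 69.0, 38.3, 20.7, 18.9, 13.7 and 1.91 FPKM. Each neighbouring pair kept this order in 10 of 10 libraries except at 2 places. Erap1 was above Tap2 in 9 libraries and Tap2 above Tap1 in 8, and these pairs lie within their spread over libraries. The 5 normal diet libraries kept the full order.

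Leaving out libraries 2 and 5 of the pro-inflammatory diet, as planned because they were known to stand apart, gave smaller differences. That of Tap1 was then the largest of the 10, with a log2 fold change of 0.12 (SE 0.15, 95% interval -0.23 to 0.47, limma adjusted p = 0.716). H2-D1, H2-Q4, H2-T23, B2m and Nlrc5 were then below 0, at -0.0078, -0.016, -0.084, -0.020 and -0.081. The upper ends of their 95% intervals were 0.14, 0.34, 0.16, 0.31 and 0.31, so differences of that size remain possible between the remaining 3 and 5 libraries. Without normal diet libraries 1, 2 and 3 instead, all 10 genes were higher with a median of 0.50.

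**Figure D3:**
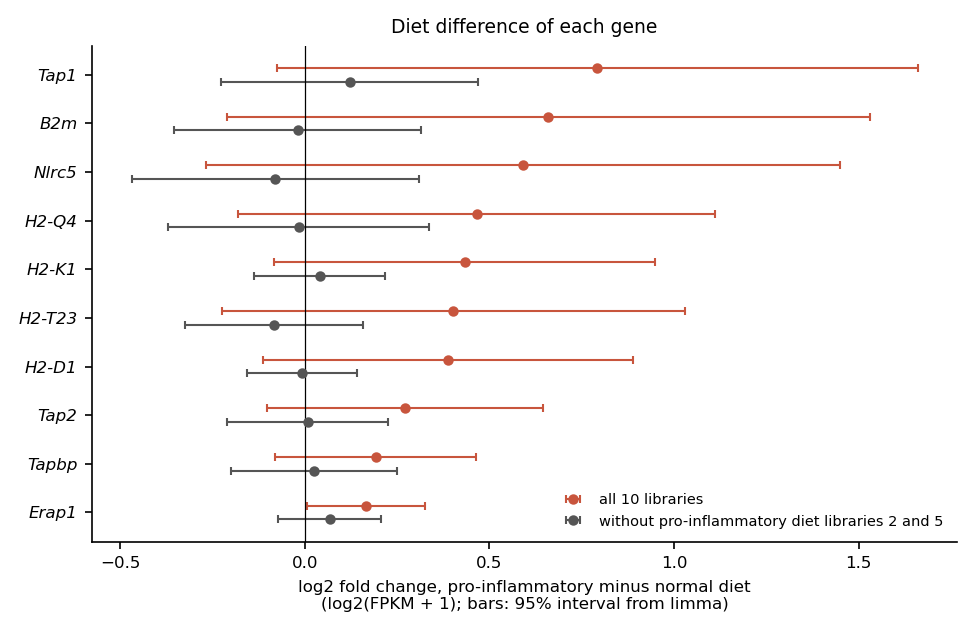
Log2 fold change of each gene, pro-inflammatory minus normal diet, on log2(FPKM + 1) (horizontal axis), with 95% intervals from limma, for all 10 libraries (red) and without pro-inflammatory diet libraries 2 and 5 (grey). The red points lie between 0.16 and 0.79, and the grey ones between -0.08 and 0.12.

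Other class I heavy chain genes showed the same 2 libraries high. Of 10 tested, 10 were higher on the pro-inflammatory diet, 0 passed, 3 had an unadjusted p under 0.05, and the median log2 fold change was 0.54. H2-T3, the thymus leukemia antigen that intestinal epithelium carries and CD8 alpha homodimers bind, was at 52.7 and 48.8 FPKM in libraries 2 and 5 and at 0.803 to 4.33 in the other 8. That was 21.1 and 19.5 times the normal diet mean. H2-Q2 was at 67.6 and 67.5 FPKM against 16.7 to 22.1. H2-Q1 was at 13.3 and 8.84 against 3.66 to 5.58, and H2-T24 at 2.20 and 5.50 against 0.598 to 1.70. H2-T22, bound by some gamma delta T cells, was at 21.5 and 32.1 against 14.7 to 19.7. H2-Q7 had 4.28 and 5.61 against 0.591 to 2.64, and H2-T-ps, a pseudogene, had 2.39 and 3.32 against 0.707 to 2.15. H2-M3, which presents formylated peptides, was at 7.89 and 7.29 FPKM and at 4.91 to 7.36 in the others, so that its values overlapped. H2-Q10 and H2-M2 were highest in library 1 of the pro-inflammatory diet, at 4.52 and 4.17 FPKM. These families share sequence, so reads between close copies may be split in ways the counting does not show.

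Class I-like genes outside the MHC did not show this pattern as a group. Of 9 tested, 3 were higher and 6 lower, 0 passed, and the median log2 fold change was -0.06. Fcgrt, the neonatal Fc receptor chain that also pairs with B2m, was at 47.3 and 42.4 FPKM in libraries 2 and 5 and at 30.2 to 35.2 in the others. Mr1, which presents vitamin B metabolites to MAIT cells, was at 3.12 and 2.57 FPKM there and at 2.18 to 3.87 elsewhere. Mill2 had a log2 fold change of -0.39 (SE 0.12, limma adjusted p = 0.175).

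The 10 genes were next placed among their neighbours, since 7 of them and 100 other tested genes lie between Tapbp and H2-T3 in the 2274 kb of the MHC on chromosome 17 (33915899 to 36190287). Both libraries 2 and 5 exceeded the other 8 for 7 of the 7 genes described here, for 7 of 8 other class I heavy chains and for 2 of 2 immunoproteasome genes. They did so for 5 of 9 class II genes and for 13 of the 81 remaining genes. The median ratio of library 5 to the normal diet mean was 2.42 for the 7 genes and 1.0001 for the 81. That of library 2 was 1.73 and 1.09. In libraries 2 and 5 the 81 ran from 0.0690 and 0.127 (Ly6g6c) to 7.42 and 6.96 times the normal diet mean (Gm8909). Genes were classed by listed name only, and Gm8909 lies between H2-T-ps and H2-T3. Whether any of the 81 holds class I-like sequence was not tested. These counts describe these libraries, and no test was made of them.

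**Figure D4:**
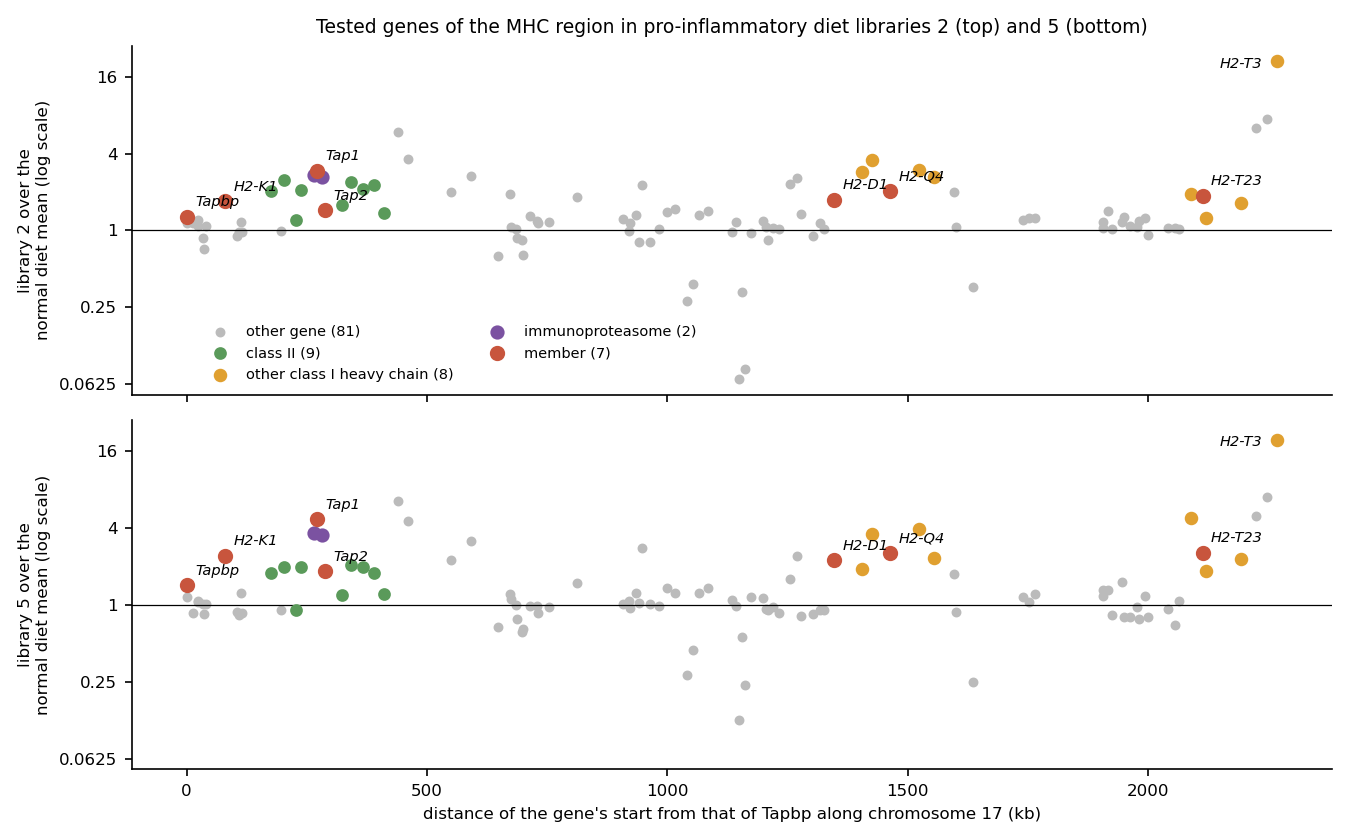
Ratio of FPKM in pro-inflammatory diet library 2 (top) and library 5 (bottom) to the normal diet mean (vertical axes, log scale) for the 107 tested genes between Tapbp and H2-T3, by distance along chromosome 17 in kb. The genes described here (red) and the other class I heavy chains (yellow) lie above 1, with H2-T3 at 21.1 and 19.5. The 81 other genes (grey) have medians of 1.09 and 1.0001, but run from 0.0690 to 7.42 and from 0.127 to 6.96.

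The immunoproteasome replaces catalytic subunits of the proteasome and cuts peptides that suit class I grooves. All 6 of its genes and of the genes of its activator were higher on the pro-inflammatory diet, 0 passed, and the median was 0.41. Psmb8 was at 57.1 and 77.2 FPKM in libraries 2 and 5 and at 17.7 to 31.4 in the other 8. Psmb9 was at 30.2 and 40.3 against 8.96 to 14.8, and Psmb10 at 87.6 and 92.5 against 44.4 to 66.5. The activator genes Psme1 and Psme2b had log2 fold changes of 0.38 and 0.39 (limma adjusted p = 0.264 and 0.274). Constitutive proteasome subunits showed another pattern. Of these, 16 of 16 were higher with a median of 0.15, but libraries 2 and 5 were both above the other 8 for 1 of them. At an unadjusted limma p under 0.05, 10 of the 16 were higher, against 8.16% of all genes tested, and 0 passed. Psma2 was higher without overlap, at 102 to 117 FPKM against 88.2 to 101 on the normal diet. Psmb3, Psma2 and Psmb7 were highest in library 3, at 118, 117 and 87.7 FPKM.

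Partners in peptide loading and supply varied in both directions. Of 17 tested, 12 were higher and 5 lower, 0 passed, and the median was 0.07. Tapbpl, a tapasin relative that edits peptides, was at 22.2 and 26.4 FPKM in libraries 2 and 5 and at 13.6 to 21.6 in the others (log2 fold change 0.38, SE 0.12, limma adjusted p = 0.190). Erp29, a chaperone of the endoplasmic reticulum, was at 46.8 to 50.8 FPKM on the normal and at 51.0 to 59.3 on the pro-inflammatory diet, without overlap (log2 fold change 0.15, adjusted p = 0.215). Lnpep, an aminopeptidase of cross-presentation, was lower without overlap, at 11.9 to 13.8 against 14.5 to 17.7 FPKM (log2 fold change -0.31, limma adjusted p = 0.151). Of 16 genes of class I trafficking and removal, 10 were higher, and Sar1b, of vesicle export, had the smallest p (log2 fold change 0.18, adjusted p = 0.173).

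Transcription regulators known for class I were mixed as a list, with 14 of 27 higher, 13 lower, 0 passing and a median of 0.02. Irf1, an interferon-induced factor, was at 65.9 and 55.5 FPKM in libraries 2 and 5 and at 27.6 to 47.8 in the others. Irf8, a factor of myeloid cells, was higher without overlap, at 32.6 and 28.4 FPKM in libraries 2 and 5. It was at 21.0 to 21.6 in the other 3 of that diet and at 14.8 to 20.3 in the normal diet libraries (log2 fold change 0.46, SE 0.13, limma adjusted p = 0.173). Rfx5, which binds the X box, was at 2.57 and 2.03 FPKM and at 1.30 to 2.24 in the others. Its partner Rfxank was lower without overlap, at 6.69 and 6.91 FPKM in libraries 2 and 5, 9.02 to 9.46 in the other 3 of that diet and 10.23 to 11.9 in the normal diet libraries (log2 fold change -0.37, SE 0.10, limma adjusted p = 0.173). Creb1, of the X2 box, was also lowest in libraries 2 and 5, at 8.92 and 7.82 against 9.79 to 12.8 FPKM. The 2 libraries highest in class I genes were thus high in Irf1 and low in Rfxank and Creb1.

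Interferon-stimulated genes showed the class I pattern. All 34 tested were higher, 0 passed, the median log2 fold change was 0.61, and for 31 both libraries 2 and 5 lay above the other 8. Their summed level was 634 and 1188 FPKM in these 2 libraries, 318 in normal diet library 1 and 203 to 247 in the other 7. Normal diet library 1 was also the highest of its diet for 9 of the 10 class I genes, all but Erap1. Of the genes that encode interferon signalling proteins, 9 of 15 tested were higher with a median of 0.01. Ifng itself had 0 to 5 reads per library, too few to compare. Il18, an inducer of interferon gamma, was low in libraries 2 and 5, at 14.6 and 17.5 FPKM against 46.8 to 64.3. Socs1, a feedback inhibitor, was at 3.88 and 2.86 against 0.952 to 1.86 FPKM.

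Among the 10 genes most like the mean z-scored profile of the class I genes over the 10 libraries were Ifi35, Psmb8, Gm5431, Irgm1, Ube2l6, Cmpk2, Oas2, Zbp1 and Lgals9. Their Pearson correlations with it ran from 0.988 to 0.996, and Spearman's rho from 0.782 to 0.939. Without libraries 5 and 2, the farthest from the median, Pearson's r over the other 8 ran from 0.834 for Zbp1 to 0.962 for Psmb8. These are descriptions picked as the highest of all tested genes, so no p is given, and the points share the depth and make-up of their libraries. Lgals9, which encodes galectin-9, was at 116 and 222 FPKM in libraries 2 and 5 and at 25.7 to 38.5 in the others. Psmb8 and Ube2l6 had the highest rho of these 9, at 0.939. Among the 10 class I genes themselves, r with the mean of the other 9 over those 8 libraries was highest for Tap1 and H2-Q4 (0.965 and 0.923) and lowest for H2-T23 and Erap1 (0.294 and 0.321).

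Readers of class I and leukocyte markers were set beside these values. Cd8a, the coreceptor of class I restricted T cells, was at 3.01 and 2.11 FPKM in libraries 2 and 5 and at 0.155 to 0.937 in the others, from 8 to 165 reads. Cd8b1 was at 2.20 and 0.594 against 0.187 to 1.07. Gzma, a granule protease of cytotoxic lymphocytes, was at 15.8 and 8.06 against 0.345 to 1.67, and Cd3e at 4.84 and 3.86 against 0.610 to 1.66. These lymphocyte genes were higher in library 2, whereas the 10 class I genes were higher in library 5. Of 25 readers with deposited values, 7 reached the filter on low values and 0 of these passed. Gzma and Cd3e reached it only through the pro-inflammatory diet (means of 5.39 and 2.37 FPKM, against 0.886 and 0.869), so the direction of this list is not counted. The 14 T cell and natural killer cell markers summed to 41.5 and 30.7 FPKM in libraries 2 and 5, 24.1 in library 1, 12.4 in library 3, 12.04 in library 4 and 8.48 to 14.9 in the normal diet libraries.

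The 10 markers of all leukocytes were higher in 10 of 10, with 0 passing, and summed to 191, 205, 101, 92.0 and 146 FPKM in pro-inflammatory diet libraries 1 to 5 and to 71.6 to 133 on the normal diet. Library 1 was thus close to library 2 and above library 5 in the sum of this list, while 9 of its 10 class I genes lay inside the normal diet range. The lists of single leukocyte types differed in this. The 12 B cell markers summed to 108 FPKM in library 1, 74.2 in library 2 and 51.8 in library 5, against 25.3 to 59.2 in the other 7 libraries. The 16 macrophage and monocyte markers summed to 722 and 683 FPKM in libraries 2 and 5, 615 in library 1 and 432 to 577 in the other 7, and 8 of them were highest in libraries 2 and 5. The 10 dendritic cell markers summed to 51.1 and 41.4 FPKM in libraries 2 and 5, 36.4 in library 1 and 22.6 to 32.0 in the others. Macrophage, dendritic and T cell sums were thus highest in the libraries highest in class I, and their part in the class I values was not tested. Ptprc, the leukocyte antigen CD45, was at 13.9, 15.8 and 11.6 FPKM in libraries 1, 2 and 5. The mean level of the 10 markers of all leukocytes was used as a covariate, and not that of the single types. All 10 class I genes were then still higher, but the median was 0.16 in place of 0.42. Class II genes, carried by antigen-presenting cells and induced in epithelium, were higher in 11 of 11 with a median of 0.40 and 0 passing. H2-Aa was at 258 and 241 FPKM in libraries 2 and 5, 184 in library 1 and 100.4 to 138 in the other 7, so library 1 was also above the normal range for this gene. In bulk tissue, fewer cells of a type and less RNA per cell cannot be told apart.

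Distal colon HOX genes also moved with these values. With the mean level of the 7 distal HOX genes as a covariate, chosen after seeing the data, 8 of the 10 genes were higher and the median was 0.03, with H2-T23 and Nlrc5 at -0.058 and -0.044. The lowest HOX values and the highest class I values are those of the same 2 libraries, so their parts cannot be told apart. Smooth muscle markers were lower in 15 of 15 on the pro-inflammatory diet, 12 of them at an unadjusted p under 0.05 and 0 passing. Their sum was 2785 and 3777 FPKM in libraries 2 and 5 and 2958 to 4677 in the other 8, and its part in the class I values was not tested beyond a muscle minus epithelium covariate, with which the median was 0.31.

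**Figure D5:**
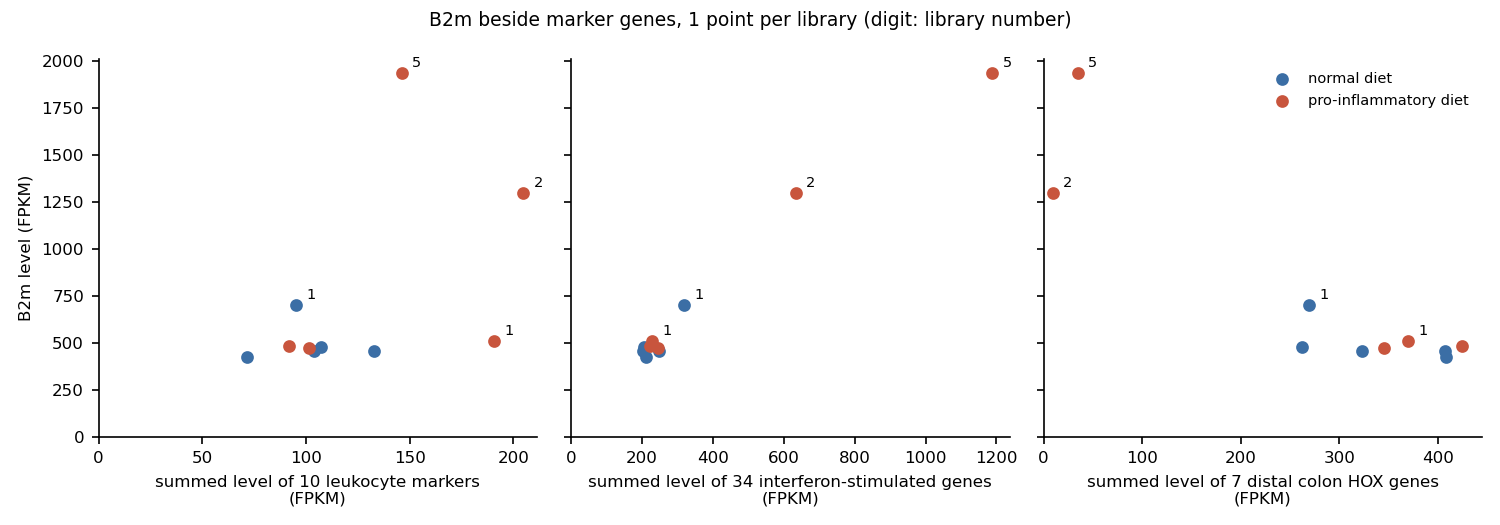
B2m level (vertical axis, FPKM) against the summed level in FPKM of 10 leukocyte markers (left), 34 interferon-stimulated genes (middle) and 7 distal colon HOX genes (right), 1 point per library, with digits for normal diet library 1 and pro-inflammatory diet libraries 1, 2 and 5. Pro-inflammatory diet library 1 has 191 FPKM of leukocyte markers beside 509 FPKM of B2m. Library 2 has the highest leukocyte sum, 205 FPKM, beside 1297 FPKM of B2m, and library 5 has 146 beside 1936. Libraries 2 and 5 have the highest interferon-stimulated and the lowest HOX sums.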

How the data were processed

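The authors deposited 1 table of FPKM, 1 value per gene and library, with no counts. Per the labels' protocols, libraries were made from RNA of RIN 7 or more with a stranded mRNA kit and read in pairs. Tools named in the submitters' processing notes, without their roles, are HISAT2, Bowtie2, StringTie, Cufflinks, HTSeq, DESeq and Trimmomatic, with the mm10 build. FPKM divides by each library's total, so very abundant genes lower the others.

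Values were whole multiples of 1 read's worth (within 0.001 read) for 18398 of 18398 genes, which gave the reads. On simulated data 99.6% of 675 genes were recovered exactly. A mean of 1 FPKM or more, met by 12345 genes, was required for testing. The test was limma 3.58.1 on log2(FPKM + 1) (R 4.3.3, eBayes with a mean trend), two-sided, Benjamini-Hochberg at 0.05. Log2 fold changes are pro-inflammatory minus normal diet and understate low genes.

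The 10 genes, the lists and the rule for named genes were chosen with earlier results of these data known. The rule takes the 10 genes, other class I heavy chains of at least 1 FPKM, the 3 smallest p of each pathway list, 14 genes whatever their p, and the 10 most alike; some are not printed. Positions are from GENCODE M21. Alternatives changed the pseudocount, filter, scaling, variance model, weights, test, covariates and libraries.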

Additional observations from a re-analysis of the deposited data

Results flagged for a closer look

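The 6 values given here, all of normal diet library 1, lay far from the other 4 normal diet libraries. They were flagged by a gap test for outliers at the 95% level, which flags about 1 in 20 groups by chance. It was run in each diet on all 10 genes and on every ratio read within libraries, so some flags would arise by chance. H2-K1 was at 383 FPKM, B2m at 702 and Tap1 at 12.3, each the highest of its diet. The ratio of Tap1 to Tap2 was 0.655 and that of Tap1 to Tapbp 0.164, also the highest. The summed heavy chains over B2m, at 1.40, were the lowest of that diet. All of these values point the same way as those of pro-inflammatory diet libraries 2 and 5, and all are smaller in size. The values share a library and are not independent of each other.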

How the results depend on the processing

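Over 26 settings, 0 of the 10 class I genes passed in any of them. Leaving out 1 library at a time moved their median log2 fold change from 0.42 to between 0.207 (without pro-inflammatory diet library 5) and 0.547 (without library 4). Without pro-inflammatory diet libraries 2 and 5 together, 5 of the 10 were higher and the median was -1.56e-05, with H2-D1 at -0.00776, H2-Q4 at -0.0163, H2-T23 at -0.084, B2m at -0.0197 and Nlrc5 at -0.0806. With a distal colon covariate, H2-T23 was at -0.0579 and Nlrc5 at -0.0441, and the median was 0.0348. Array weights gave a median of 0.128 and a leukocyte covariate 0.162; the cause was not tested. Across all genes, limma called 0 except with the muscle minus epithelium covariate (2 genes, Mylip and Sfn) and the distal colon covariate (1, Kyat1). A replicate block by library number called 0 and kept the median at 0.418. Same-numbered libraries correlated at -0.263 to 0.061 in their deviations. This gave no sign of pairing by number but cannot exclude it, as the deviations also hold other differences between libraries. An exact permutation test per gene over all splits into 5 and 5, called 0, but its smallest p is 0.00794, too large for a call after adjustment unless many more genes separated the diets, so it gives no support. At a mean FPKM of at least 5, 9 of the 10 genes were tested, without Nlrc5. Voom on the recovered reads also called 0 genes. Nlrc5, with 91 to 775 reads, had the fewest reads of the 10.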
